A study of Canis lupus familiaris with 6 samples.

Results

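The genes described here lie on dog chromosome 13, in the segment whose human counterpart is the long arm of chromosome 8 from bands q22 to q24. A list of 38 genes of this segment, which also carries MYC and FZD6, was chosen with earlier results of these arrays known. Of the 38 genes, 34 were measured by a probe set annotated to that gene alone, among 15115 genes measured in the series. The brightest probe set of 74 stood for each gene. POLR2K, SPAG1 and CTHRC1 had no probe set of their own here, and every probe set for NSMCE2 was annotated to 2 gene identifiers. Because the measured values helped to choose the list, differences between the groups are described for its members with no p-value, and members called by the fit across all genes are counted as a description only.

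RNA came from cultured canine primary osteosarcoma lines, 1 array per line, and not from tumours or transplants. Transplanted into mice, UWKOS1, UWKOS3 and UWKOS7 gave rise to tumours and are called tumorigenic, whereas UWKOS2, UWKOS6 and UWKOS8 did not and are called non-tumorigenic. All 6 lines were grown in the same serum-containing medium and harvested before confluence, and no normal osteoblast, reference line or treated culture was compared. Each line is a single culture, so spread within a group is spread between lines, and no genotype or copy number measurement was used here. In a bulk sample, fewer cells of a type and less RNA per cell cannot be told apart.

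Cancer cells often carry extra copies of this segment. Gain of dog chromosome 13, which carries MYC, recurs in canine osteosarcoma, and the homologous human region is gained in many carcinomas and sarcomas. A gene present in extra copies tends to be transcribed more, so a gained stretch is usually visible as neighbouring genes that are raised together in one sample. The segment holds no single pathway: its genes serve translation, transcription, chromosome cohesion, ribosome assembly, protein degradation, adhesion signalling and transport.

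Values are deposited log2 signals, so 1 unit is a doubling. Array medians lay between 6.03 and 6.05, and 9145 genes had a mean at or above the median of the non-control probe sets, 6.07, and entered the limma fit. Of the members, 32 passed this filter: KLF10 lay just inside with a mean of 6.14, FBXO32 just outside with 6.03, and SAMD12 lower at 5.09. The bone matrix genes COL1A1, COL1A2 and SPARC were bright in all 6 lines, from 12.28 to 14.60. RUNX2 was at 5.84 to 6.52, and ALPL, IBSP and SPP1 were below the filter. SPP1 was at 9.76 in UWKOS1 and at 2.79 to 3.30 in the other lines. Of the 5 bone genes tested, 0 passed in limma in either direction (unadjusted, 0 higher and 2 lower). Of the 3 leukocyte markers, PTPRC was below the filter (4.86 to 5.17), while CD14 (5.87 to 6.28) and CD68 (5.71 to 7.68) were tested. Of the 3 endothelial markers, PECAM1 (3.97 to 5.17) and VWF (5.33 to 6.14) were below the filter, and CDH5 was at 7.34 to 7.72 in all 6 lines. The tested markers did not pass in limma, with CD68 lower in tumorigenic lines by 1.07 ± 0.43 (adjusted p = 0.143), CD14 differing by 0.04 ± 0.18 (adjusted p = 0.904) and CDH5 by -0.04 ± 0.17 (adjusted p = 0.887). The difference between the 3′ and 5′ probe sets of ACTB grows as RNA degrades. It was 0.64, 0.81 and 1.11 in the tumorigenic lines, against 0.82, 2.86 and 2.07 in the non-tumorigenic lines. For GAPDH, the covariate used below, it was 0.86, 0.88 and 1.07 in UWKOS1, UWKOS3 and UWKOS7. In UWKOS2, UWKOS6 and UWKOS8 the GAPDH difference was 0.95, 1.21 and 1.98, so UWKOS6 stood out less than in ACTB. Proliferation genes differed too, with a median difference of 1.68 over 8 tested genes, 4 of them past the limma threshold. The part of RNA quality, of proliferation and of other cells in the group differences below was not tested.

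**Figure D1:**
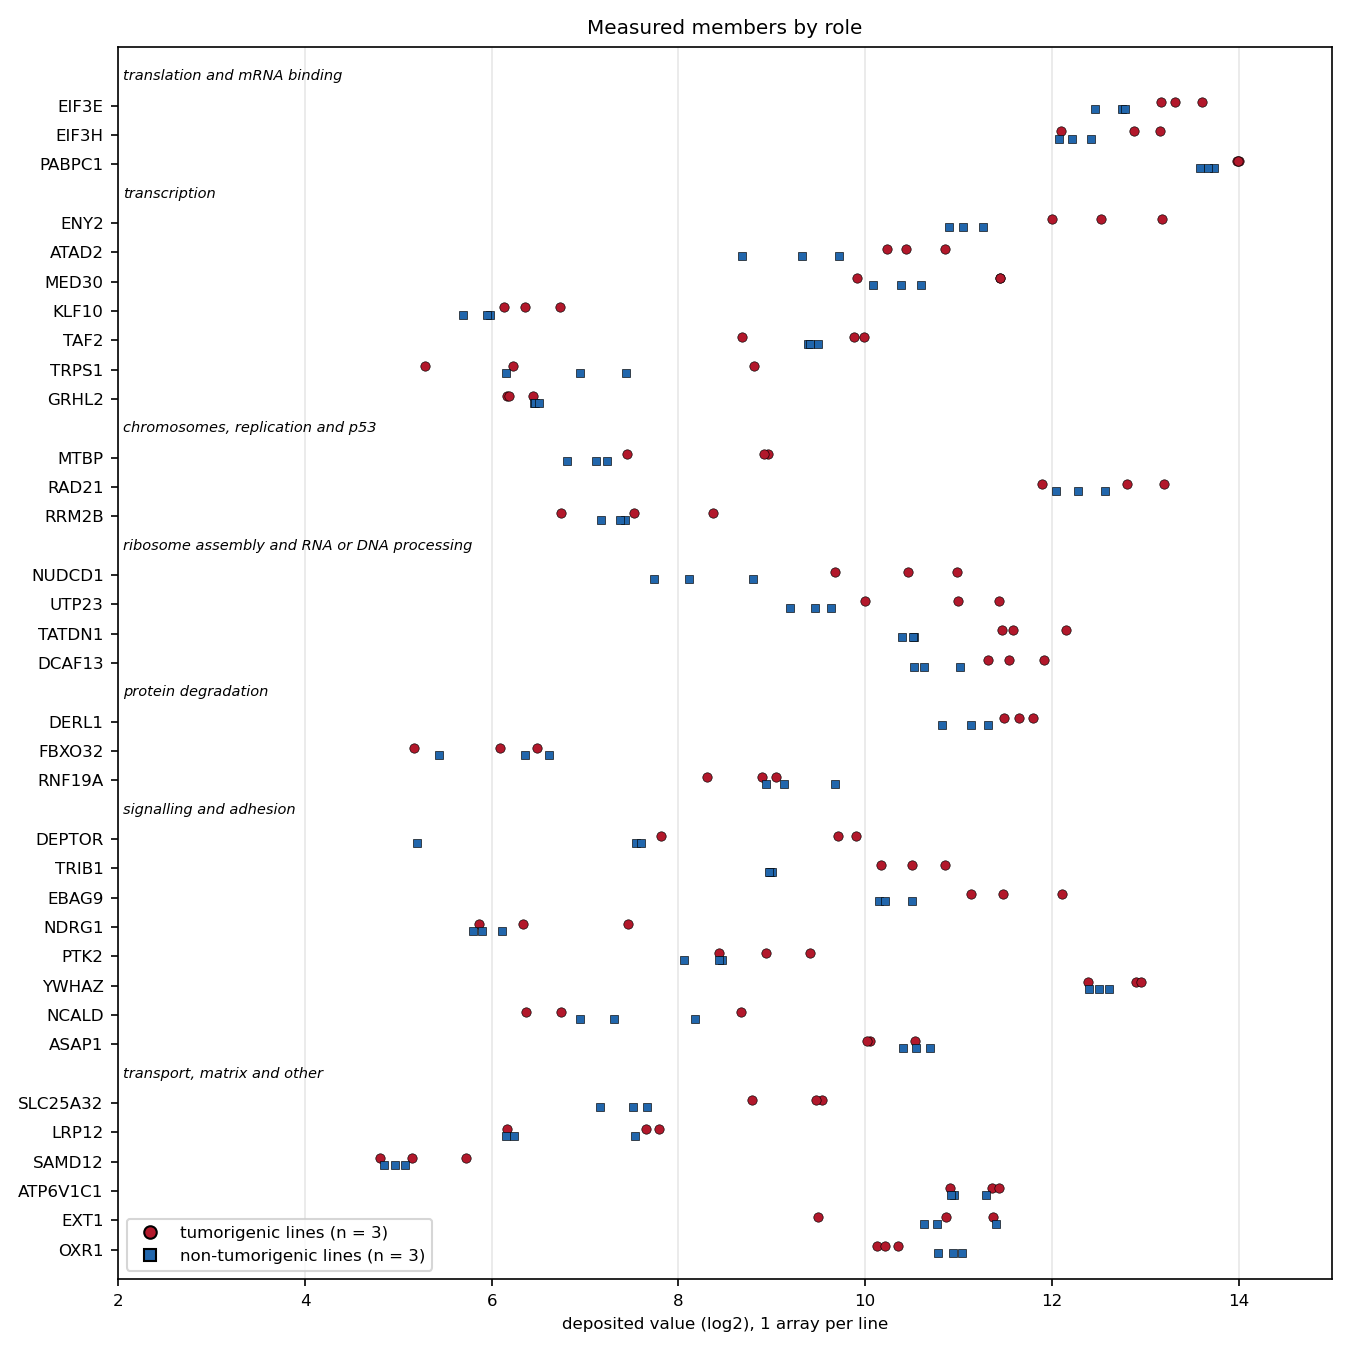
Deposited log2 value of each measured member (rows, grouped by role) in the 3 tumorigenic lines (red circles) and the 3 non-tumorigenic lines (blue squares), 1 point per array. The 4 genes labelled ribosome assembly and RNA or DNA processing, a mixed group, all have their red circles to the right of their blue squares. Other roles mix separated and overlapping genes.

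Across the list, 26 of 34 members had a higher mean in tumorigenic than in non-tumorigenic lines and 8 a lower one. The median difference, tumorigenic minus non-tumorigenic, was 0.54, with a range of -0.69 for OXR1 to 2.36 for DEPTOR, beside a median of 0.03 over all 9145 tested genes. All 3 tumorigenic values lay above all 3 non-tumorigenic values for 15 members, where 21.7% of all tested genes did so, and below them for 2, where 16.6% did. Past the limma threshold of 0.05 after Benjamini-Hochberg adjustment were 7 members that were higher (7.5% of all tested genes) and 1 that was lower (4.63% of all tested genes). Since the list was chosen with this contrast known, these counts are a description. The 33 tested genes of the segment that are not on the list had a median difference of 0.72, and the 101 tested genes on the rest of chromosome 13 one of 0.26.

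**Figure D2:**
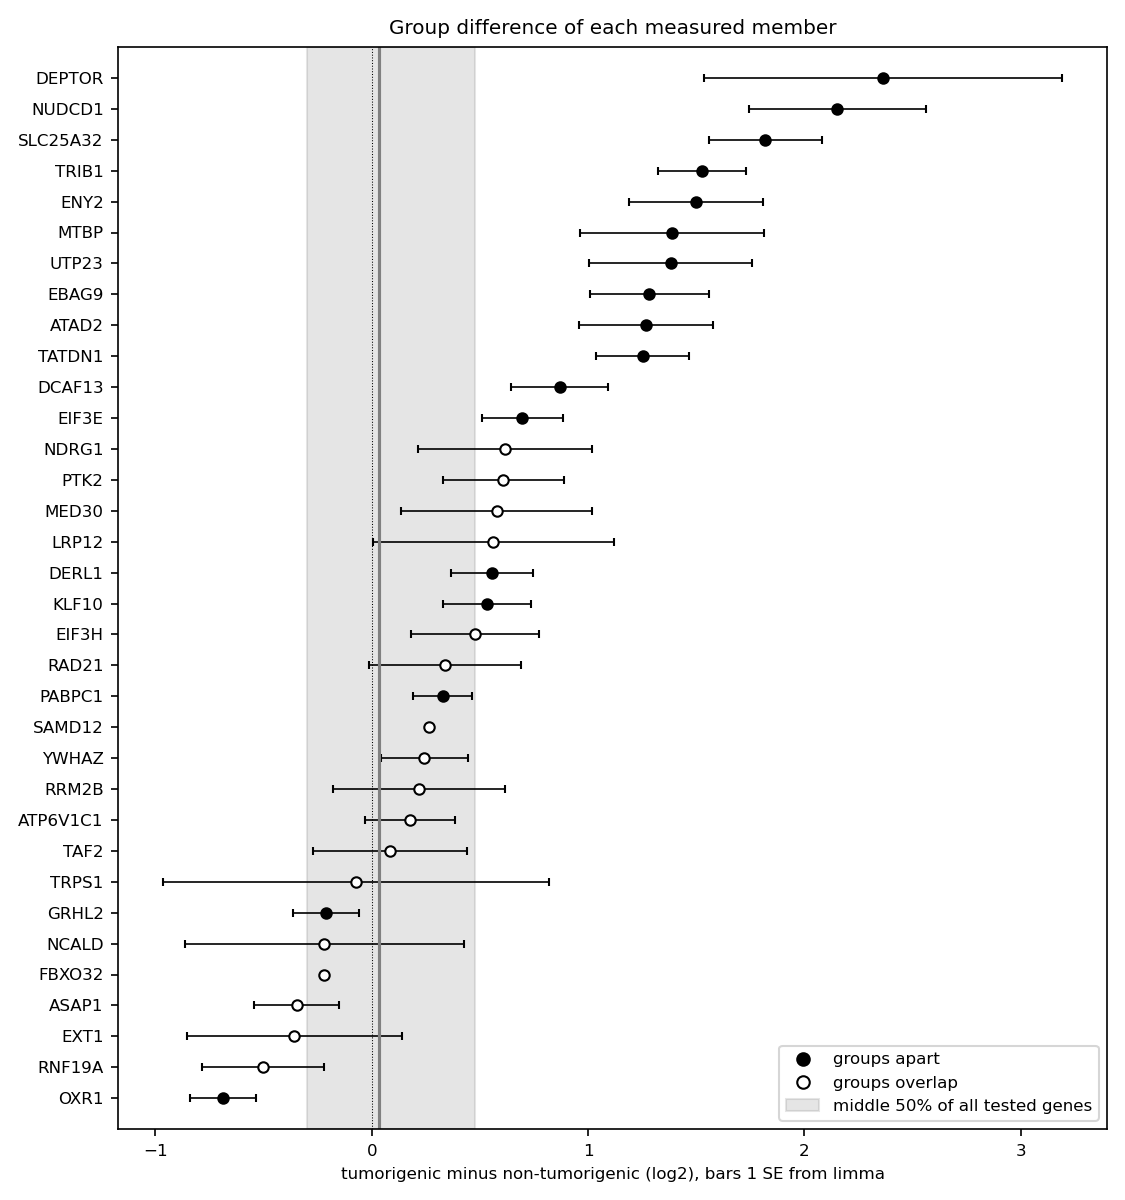
Log2 difference of each measured member, tumorigenic lines minus non-tumorigenic ones, with 1 SE from limma (no bar for the 2 members below the filter). Filled points mark members whose groups do not overlap, and the grey band holds the middle 50% of all tested genes. Members run from DEPTOR at 2.36 down to OXR1 at -0.69.

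The role labelled ribosome assembly and RNA or DNA processing had the highest median difference of the 7 roles, 1.32 over 4 measured members. It is a mixed group, in which only UTP23 and DCAF13 are processome proteins. In the order UWKOS1, UWKOS3, UWKOS7, then UWKOS2, UWKOS6, UWKOS8, which is kept below, NUDCD1, which encodes a protein with a NudC domain, had 10.45, 10.98 and 9.68 in the tumorigenic lines, against 8.80, 7.74 and 8.12 in the non-tumorigenic lines. UTP23, a factor of the small-subunit processome that matures 18S ribosomal RNA, had 11.43, 9.99 and 10.999 in the tumorigenic lines and 9.63, 9.19 and 9.46 in the non-tumorigenic lines. For both genes every tumorigenic line lay above every non-tumorigenic line, but the line with the most differed: UWKOS3 led for NUDCD1 and was the lowest tumorigenic line for UTP23. DCAF13, another processome protein, was at 11.92, 11.31 and 11.54 in the tumorigenic lines, against 11.01, 10.63 and 10.53 in the non-tumorigenic lines. TATDN1, a nuclease of the TatD family, was at 11.58, 12.15 and 11.46 in the tumorigenic lines and 10.53, 10.51 and 10.40 in the non-tumorigenic lines. The differences were 2.15 ± 0.41 for NUDCD1, 1.38 ± 0.37 for UTP23, 1.25 ± 0.22 for TATDN1 and 0.87 ± 0.22 for DCAF13 (SE from limma, n = 3 lines each). Processome genes encoded outside the segment were set beside UTP23 and DCAF13. This list and the partner lists below were also chosen with earlier results of these arrays known. Their counts and p-values are therefore a description and no independent result. Of 18 other genes of the processome and 18S maturation, 12 rose in tumorigenic lines past the limma threshold and 0 fell (at an unadjusted p under 0.05, 17 and 0), with a median difference of 1.02. NOP56, a core box C/D snoRNP protein, was higher by 1.43 ± 0.18 (SE, n = 3 lines each, adjusted p = 0.0152, limma), and FBL, the snoRNP methyltransferase fibrillarin, by 1.58 ± 0.20 (adjusted p = 0.0153, limma). All 18 were higher on average in tumorigenic lines. Without UWKOS6, 0 of the 18 passed in limma (unadjusted, 15 higher and 0 lower). Over this list and the partner lists below, 19 of 112 tested genes rose and 2 fell, where 7.5% and 4.63% of all tested genes did. Of the 19, 12 were in the processome list, and no other list held more than 3. Of these 112, 0 passed in either direction without UWKOS6 (unadjusted in limma, 30 higher and 3 lower). With a GAPDH 3′ to 5′ difference as a covariate 0 passed too (unadjusted, 25 higher and 2 lower), so each partner call below is lost in both cases. Over all 9145 tested genes, 5 rose and 7 fell without UWKOS6, and 4 rose and 6 fell with the covariate.

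Transcription members were uneven. ENY2, a subunit of the SAGA coactivator and of an mRNA export complex, had 12.53, 13.18 and 12.003 in the tumorigenic lines, against 11.26, 11.05 and 10.90 in the non-tumorigenic lines. ATAD2, a bromodomain ATPase of chromatin that assists E2F and MYC in human cells, had 10.44, 10.85 and 10.23 in the tumorigenic lines and 9.32, 8.68 and 9.72 in the non-tumorigenic lines. Both were higher in each tumorigenic line than in any non-tumorigenic line, by 1.5 ± 0.31 and 1.27 ± 0.31 on average (SE, n = 3 lines each). The Mediator subunit MED30 was at 11.45, 9.91 and 11.44 in the tumorigenic lines, against 10.60, 10.08 and 10.39 in the non-tumorigenic lines. TAF2, a subunit of the TFIID factor that binds core promoters, was at 9.98, 8.68 and 9.88 in the tumorigenic lines and 9.49, 9.39 and 9.41 in the non-tumorigenic lines. In these cases UWKOS1 and UWKOS7 were above all non-tumorigenic lines and UWKOS3 was below all of them, which leaves mean differences of 0.58 ± 0.44 and 0.09 ± 0.36. TRPS1, a GATA-type repressor of cartilage and bone development, was at 8.81, 6.23 and 5.29 in the tumorigenic lines, against 6.16, 7.44 and 6.95 in the non-tumorigenic lines. It had the smallest group difference of the list, -0.07 ± 0.89, and the widest spread within the tumorigenic lines, with UWKOS1 highest and UWKOS7 lowest of all 6. KLF10, a zinc-finger factor induced by TGF-beta, was slightly higher in every tumorigenic line (0.53 ± 0.20), and the epithelial factor GRHL2 slightly lower (-0.21 ± 0.15); both were dim. Among their partners encoded outside the segment, 2 of 23 Mediator genes rose, a share near the 7.5% of all tested genes, and 0 fell (unadjusted, 7 and 0). They were MED6 with 1.20 ± 0.18 (adjusted p = 0.0187, limma) and MED22 with 1.07 ± 0.16 (adjusted p = 0.0195, limma), and neither passed without UWKOS6. Of 11 TFIID genes 0 passed in either direction (unadjusted, 2 higher and 0 lower), the closest being TBP with 0.68 ± 0.21 (adjusted p = 0.0781, limma). The same held for 9 subunits of RNA polymerase II (unadjusted, 2 higher and 0 lower), the partners of the unmeasured POLR2K.

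Translation members differed by less than 1 unit between the groups on their brightest probe sets. EIF3E, a subunit of the eIF3 complex that brings the small ribosomal subunit to mRNA, had 13.32, 13.60 and 13.16 in the tumorigenic lines, against 12.75, 12.79 and 12.46 in the non-tumorigenic lines. EIF3H, of the same complex, had 13.16, 12.09 and 12.88 in the tumorigenic lines and 12.41, 12.21 and 12.07 in the non-tumorigenic lines. EIF3E was higher in all tumorigenic lines, by 0.70 on this probe set and by 1.46 on its other one, whereas for EIF3H UWKOS3 lay among the non-tumorigenic lines. PABPC1, which coats the poly(A) tails of mRNA, was at 13.982 to 14.003 in tumorigenic lines and 13.59 to 13.74 in non-tumorigenic lines, a difference of 0.33 ± 0.14. Of 10 other eIF3 genes 2 rose, where 7.5% of all tested genes did, and 0 fell (unadjusted, 4 and 0), with a median difference of 0.27. EIF3B was higher by 0.83 ± 0.14 (adjusted p = 0.023, limma) and EIF3M by 0.73 ± 0.16 (adjusted p = 0.04, limma), and neither passed without UWKOS6.

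Members that act on chromosomes, replication and p53 followed the same divide among the tumorigenic lines. MTBP, an MDM2-binding protein needed to fire replication origins in human cells, had 8.96, 7.45 and 8.91 in the tumorigenic lines, against 7.12, 6.81 and 7.23 in the non-tumorigenic lines. RAD21, the cohesin subunit cleaved at anaphase, had 13.20, 11.90 and 12.80 in the tumorigenic lines and 12.28, 12.05 and 12.56 in the non-tumorigenic lines. UWKOS1 and UWKOS7 carried the highest levels of both, while UWKOS3 was only just above the non-tumorigenic lines for MTBP and, on the brightest probe set, below all of them for RAD21. On the other 3 RAD21 probe sets past the filter UWKOS3 was again the lowest tumorigenic line, but it was below all non-tumorigenic lines on 1, among them on 1 and just above them on 1. RRM2B, the p53-inducible small subunit of ribonucleotide reductase, was at 7.53, 8.37 and 6.74 in the tumorigenic lines, against 7.43, 7.17 and 7.38 in the non-tumorigenic lines. Here the pattern was turned round, with UWKOS3 highest and UWKOS7 lowest of the 6 lines. Of 12 other tested genes of the cohesin and SMC5/6 complexes 3 rose, where 7.5% of all tested genes did, and 0 fell (unadjusted, 4 and 0). SMC6 was higher by 1.19 ± 0.21 (adjusted p = 0.0233, limma) and NSMCE4A by 1.03 ± 0.22 (adjusted p = 0.0358, limma), both partners of the unmeasured NSMCE2 in the SMC5/6 complex, and neither passed without UWKOS6. The other ribonucleotide reductase genes, RRM2 with 1.38 ± 0.37 (adjusted p = 0.0585, limma) and RRM1 with 0.45 ± 0.25 (adjusted p = 0.274, limma), did not pass.

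Signalling and adhesion held the largest single difference. DEPTOR, an inhibitor that binds the mTOR kinase, had 7.81, 9.71 and 9.90 in the tumorigenic lines, against 7.54, 7.60 and 5.19 in the non-tumorigenic lines. UWKOS3 and UWKOS7 were far above the rest, UWKOS1 was just above UWKOS2 and UWKOS6, and UWKOS8 was lowest, so the difference of 2.36 carried an SE of 0.83. None of 6 tested mTOR complex genes passed in limma in either direction (unadjusted, 0 and 0), and MTOR itself differed by 0.33 ± 0.19 (adjusted p = 0.285, limma). TRIB1, a pseudokinase that guides the COP1 ubiquitin ligase to its substrates, had 10.85, 10.50 and 10.17 in the tumorigenic lines and 8.98, 8.999 and 8.97 in the non-tumorigenic lines. EBAG9, an oestrogen-responsive gene whose product modulates regulated secretion, had 11.47, 12.11 and 11.13 in the tumorigenic lines, against 10.50, 10.15 and 10.21 in the non-tumorigenic lines. TRIB1 was nearly constant in the non-tumorigenic lines, and for both genes the groups were well apart (1.53 ± 0.20 and 1.28 ± 0.28). NDRG1, a stress-induced gene, was at 7.45, 6.33 and 5.86 in the tumorigenic lines and 5.90, 6.11 and 5.80 in the non-tumorigenic lines, so only UWKOS1 and, less, UWKOS3 stood above all non-tumorigenic lines. NCALD, a neuronal calcium sensor, was at 6.37, 8.67 and 6.75 in the tumorigenic lines, against 6.95, 8.18 and 7.31 in the non-tumorigenic lines, with UWKOS3 and UWKOS6 highest, one from each group. The focal adhesion kinase gene PTK2 differed by 0.61 ± 0.28, the 14-3-3 gene YWHAZ by 0.24 ± 0.20 and the Arf GTPase-activating gene ASAP1 by -0.35 ± 0.20, each with overlapping groups. Of 4 tested partners of focal adhesion kinase (unadjusted, 0 and 0) and 4 other 14-3-3 genes (unadjusted, 1 higher and 0 lower), 0 passed in limma in either direction.

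The remaining members transport solutes, build matrix sugars or degrade proteins. SLC25A32, the mitochondrial folate carrier, had 9.53, 9.47 and 8.79 in the tumorigenic lines, against 7.67, 7.16 and 7.51 in the non-tumorigenic lines. Its groups were separated by more than 1 unit at their nearest lines, and the difference was 1.82 ± 0.26 (SE, n = 3 lines each). OXR1, which protects cells from oxidative damage, had 10.13, 10.21 and 10.35 in the tumorigenic lines and 10.94, 11.03 and 10.78 in the non-tumorigenic lines. It was the clearest exception on the list, lower in every tumorigenic line by 0.69 ± 0.15 on average, although its other probe sets past the filter gave differences as small as -0.04. EXT1, a polymerase of heparan sulphate chains, had 11.37, 9.49 and 10.87 in the tumorigenic lines, against 11.40, 10.63 and 10.77 in the non-tumorigenic lines, with UWKOS3 lowest of all 6 lines and UWKOS1 level with UWKOS2. LRP12, a receptor of the LDL receptor family, was at 7.65, 6.17 and 7.79 in the tumorigenic lines and 7.53, 6.16 and 6.24 in the non-tumorigenic lines. UWKOS1, UWKOS7 and the non-tumorigenic UWKOS2 formed its high lines and the other 3 its low ones, a split that crosses the groups. ATP6V1C1, a subunit of the proton pump V-ATPase, was at 11.36, 10.91 and 11.44 in the tumorigenic lines, against 11.29, 10.96 and 10.92 in the non-tumorigenic lines, so that the groups differed by 0.18 ± 0.21. Of 7 other V1 subunits of the pump, ATP6V1H fell by 0.79 ± 0.19 (adjusted p = 0.046, limma) and 0 rose (unadjusted, 2 lower and 0 higher). Of 6 heparan sulphate genes, the sulphotransferase gene NDST2 fell by 1.00 ± 0.22 (adjusted p = 0.0365, limma) and 0 rose (unadjusted, 2 lower and 0 higher). In protein degradation, DERL1, a channel component of endoplasmic reticulum quality control, was higher in every tumorigenic line (0.56 ± 0.19). The ubiquitin ligase genes RNF19A (-0.50 ± 0.28) and FBXO32 (-0.22, below the filter) overlapped between groups. FBXO32 was at 5.17, 6.09 and 6.48 in the tumorigenic lines and 6.62, 6.35 and 5.44 in the non-tumorigenic lines. SAMD12, also below the filter, differed by 0.26.

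**Figure D3:**
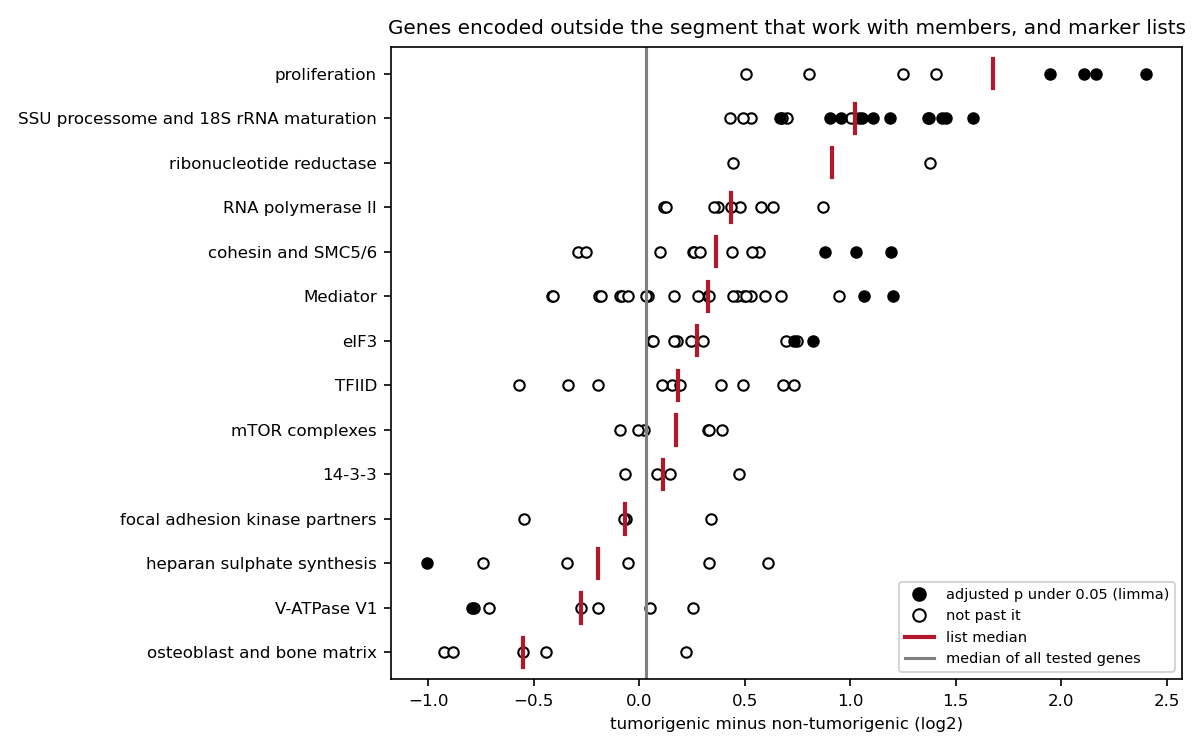
Tumorigenic minus non-tumorigenic difference (log2) of the tested genes in each list of partners encoded outside the segment and in the proliferation and bone lists, 1 point per gene. Filled points passed the limma threshold, red bars are list medians and the grey line is the median of all tested genes. The processome list, with a median of 1.02, stands next to proliferation at 1.68, while the other lists with at least 4 tested genes have medians between -0.55 and 0.44.

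To show how evenly the segment stood in each line, the line was set against the median of the other 5 lines, gene by gene. The median over the 34 members was 0.76 in UWKOS1, 0.27 in UWKOS3 and 0.47 in UWKOS7, against -0.19 in UWKOS2, -0.38 in UWKOS6 and -0.31 in UWKOS8. Over all tested genes the same medians lay between -0.04 and 0.04. UWKOS1 was above the other lines' median for 29 of 34 members, UWKOS7 for 26 and UWKOS3 for 19, against 14 in UWKOS2, 7 in UWKOS6 and 7 in UWKOS8. Of the tumorigenic lines, UWKOS1 thus had the most members on the high side and UWKOS3 the fewest. This order was not particular to the segment. Over the 101 tested genes on the rest of chromosome 13, the medians were 0.49 in UWKOS1, -0.04 in UWKOS3 and 0.20 in UWKOS7. With the 33 tested non-members of the segment added, the medians were 0.63 in UWKOS1, 0.36 in UWKOS3 and 0.26 in UWKOS7, so the order of UWKOS3 and UWKOS7 depends on which genes are taken.

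**Figure D4:**
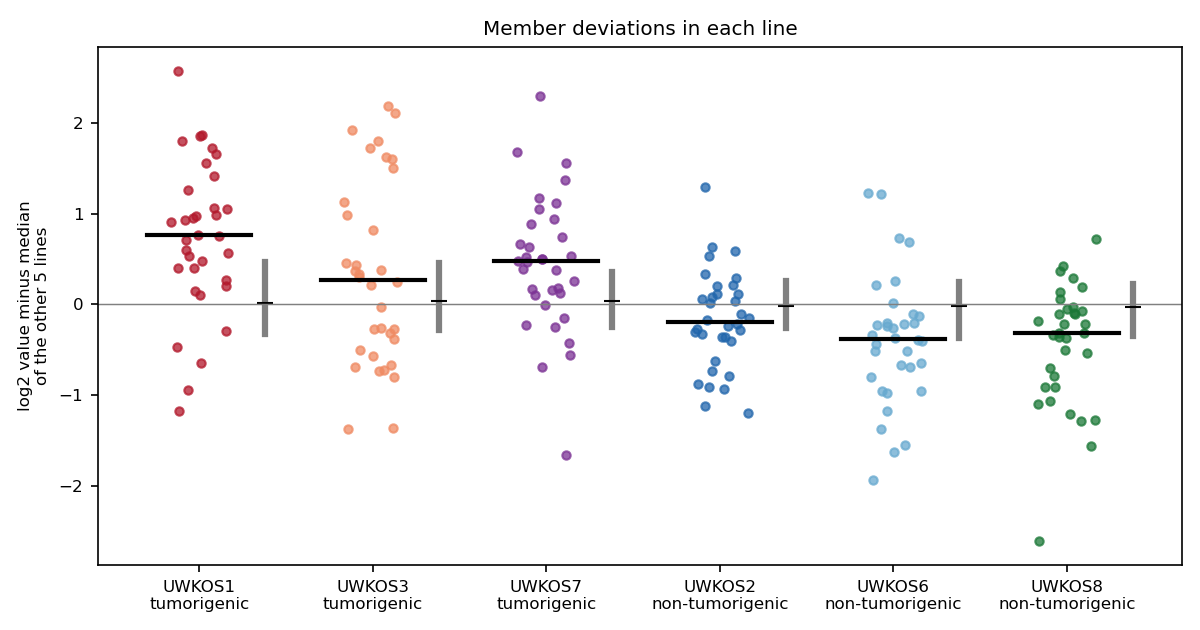
Each member's log2 value minus the median of the other 5 lines (points, n = 34 members), with the member median (black bar). The grey bar beside each cloud spans the middle 50% of all tested genes, with a tick at their median. Most points of UWKOS1 and UWKOS7 lie above 0, those of UWKOS3 split on both sides of it, and those of UWKOS6 and UWKOS8 lie mostly below.

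Over the 34 members, UWKOS1 again led and UWKOS3 again came last of the tumorigenic lines when each was set against the 3 non-tumorigenic lines. UWKOS1 was above all 3 for 27 members and below all 3 for 5, where 40.1% and 37.2% of all tested genes were. UWKOS7 was above for 23 and below for 7, where 38.5% and 31.7% of all tested genes were. UWKOS3 was above for 19 and below for 10, where 40.0% and 34.1% were. The 10 members for which UWKOS3 was below all non-tumorigenic lines were 29.4% of the list, a share under the 34.1% of all tested genes. Of them, RAD21, MED30, EXT1, SAMD12 and TAF2 follow one another in the list's order along the chromosome. RNF19A, GRHL2, ATP6V1C1, OXR1 and ASAP1 lie apart.

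To follow the order along the chromosome, each tumorigenic line was compared with the mean of the other 2 tumorigenic lines, a measure that does not use the contrast between groups. Gene order was taken from RefSeq assembly UU_Cfam_GSD_1.0. These deviations sum to 0 over the 3 lines, so a high line implies a low one elsewhere. UWKOS1 was at least 0.5 above the other 2 for 13 of 34 members and at least 0.5 below for 3, where 15.6% and 14.7% of all tested genes were. UWKOS3 was above by that much for 8 and below for 12, where 14.8% and 13.4% of all tested genes were. UWKOS7 was above for 6 and below for 10, where 14% and 17.4% were. Of the 101 tested genes on the rest of chromosome 13, UWKOS1 was above for 41 and below for 8. There UWKOS3 was above for 15 and below for 37.

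Many of the members that were high or low in UWKOS3 lay in blocks along the chromosome. Outside the blocks described below lay NCALD and RRM2B, 2.11 and 1.23 above the other tumorigenic lines. RNF19A and PTK2, at -0.66 and -0.74, lay outside them too. In windows of 5 neighbouring tested genes, members or not, UWKOS3 had a median of at least 0.5 above the other 2 lines in 13 of 61 windows of the segment and of at least 0.5 below in 16, where 6.69% and 5.39% of 8501 windows of the genome did. UWKOS1 was above in 19 and below in 0, where 7.43% and 8.15% of genome windows were. UWKOS7 was above in 5 and below in 13, where 5.94% and 9.2% were. Windows low in UWKOS3 and high in UWKOS1 also lay elsewhere on chromosome 13. That from CHRNA5 to TMEM33 had medians of -1.35 in UWKOS3 and 1.18 in UWKOS1. Overlapping windows share genes, the window scan was chosen after the data were seen, and no test was made of these counts.

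The low block of UWKOS3 ran over 14 consecutive windows and 18 genes from SYBU to TBC1D31, and held EIF3H, UTP23, RAD21, MED30, EXT1, TAF2 and MTBP. Its 10 members had a median of -1.16 against the other tumorigenic lines, 8 of them below 0, and its 8 non-members one of -0.66, 6 of them below 0. Taken pair by pair, the median of UWKOS1 minus UWKOS3 over these 10 members was 1.37 and that of UWKOS7 minus UWKOS3 was 0.95. That of UWKOS1 minus UWKOS7 was 0.30. The block was picked by a low UWKOS3 against the mean of UWKOS1 and UWKOS7, so these medians describe it and are no independent check. Against the mean of the non-tumorigenic lines, the 10 members had medians of 0.98 in UWKOS1, -0.27 in UWKOS3 and 0.58 in UWKOS7. DEPTOR broke the pattern: within the block it was 0.86 above the other tumorigenic lines in UWKOS3 and 2.0 below them in UWKOS1. DERL1, near the end of the block, was level in UWKOS3. A shorter low run of UWKOS3, of 2 windows, went from DCAF13 to EIF3E. Its 4 members had a median of -0.22, with LRP12 at -1.56, and its 2 non-members one of -1.38.

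On both sides of the low block lay windows in which UWKOS3 was high. Windows overlap, so SYBU, TRPS1 and LOC475080 belong to the low block and to the high windows before it, and TBC1D31 to the low block and to the high windows after it. In the windows before it, over 8 genes from EIF3E to LOC475080, UWKOS3 was above the other tumorigenic lines for 4 of 5 members, by 0.91 for NUDCD1, 0.92 for ENY2 and 0.81 for EBAG9, and was 0.82 below them for TRPS1. Against the non-tumorigenic mean, the median over these 8 genes was 1.32 in UWKOS1, 1.38 in UWKOS3 and 0.67 in UWKOS7. In the windows after it, over 13 genes from TBC1D31 to LOC475097, UWKOS3 was above for 2 of 3 members and 8 of 10 non-members, by 0.52 for ATAD2 and 0.63 for TATDN1. The non-members had a median of 1.01, and TRIB1, the last member there, was at -0.01. Against the non-tumorigenic mean, the median over all 13 genes was 1.10 in UWKOS1, 1.52 in UWKOS3 and 0.67 in UWKOS7. Compared with UWKOS1 alone, UWKOS3 was higher for 7 of the 8 genes and 11 of the 13 genes, and lower for 14 of the 18 genes of the low block. The stretches were picked by the level of UWKOS3 against the other tumorigenic lines, so these counts are a description only.

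UWKOS7 was at least 0.5 below the mean of the other 2 tumorigenic lines in windows from EIF3E to EIF3H and from ATAD2 to LOC475097. Its gap to UWKOS1 was smaller. The median of UWKOS1 minus UWKOS7 was 0.42 from EIF3E to LOC475080, above 0 for 6 of 8 genes. From TBC1D31 to LOC475097 it was 0.36, above 0 for 9 of 13 genes. UWKOS1 was at least 0.5 above the mean of the other 2 in the 14 windows of the middle block. The lowest of the 61 window medians of UWKOS1 was -0.22. UWKOS1 also stood apart in some cell type markers. Of 4 epithelial markers 3 were measured, all below the filter. KRT18 was at 7.44 in UWKOS1, 6.41 in UWKOS3 and 5.065 to 5.72 in the other lines. EPCAM was at 7.65 in UWKOS1 and no higher than 4.0 elsewhere, while CDH1 was at 4.05 in UWKOS1 and 3.95 to 4.26 elsewhere. The bone gene SPP1 was likewise high in UWKOS1 alone, at 9.76. The part of such differences in the UWKOS1 values of the members was not tested. The comparison of UWKOS7 with UWKOS3, which leaves UWKOS1 out, gave a higher UWKOS7 for 15 of the 18 genes of the block and 8 of its 10 members. The block was picked by a low UWKOS3 against a mean that includes UWKOS7, so these counts are a description and no independent check. The exceptions, SYBU, TRPS1 and DERL1, lie among the 2 genes at each end.

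**Figure D5:**
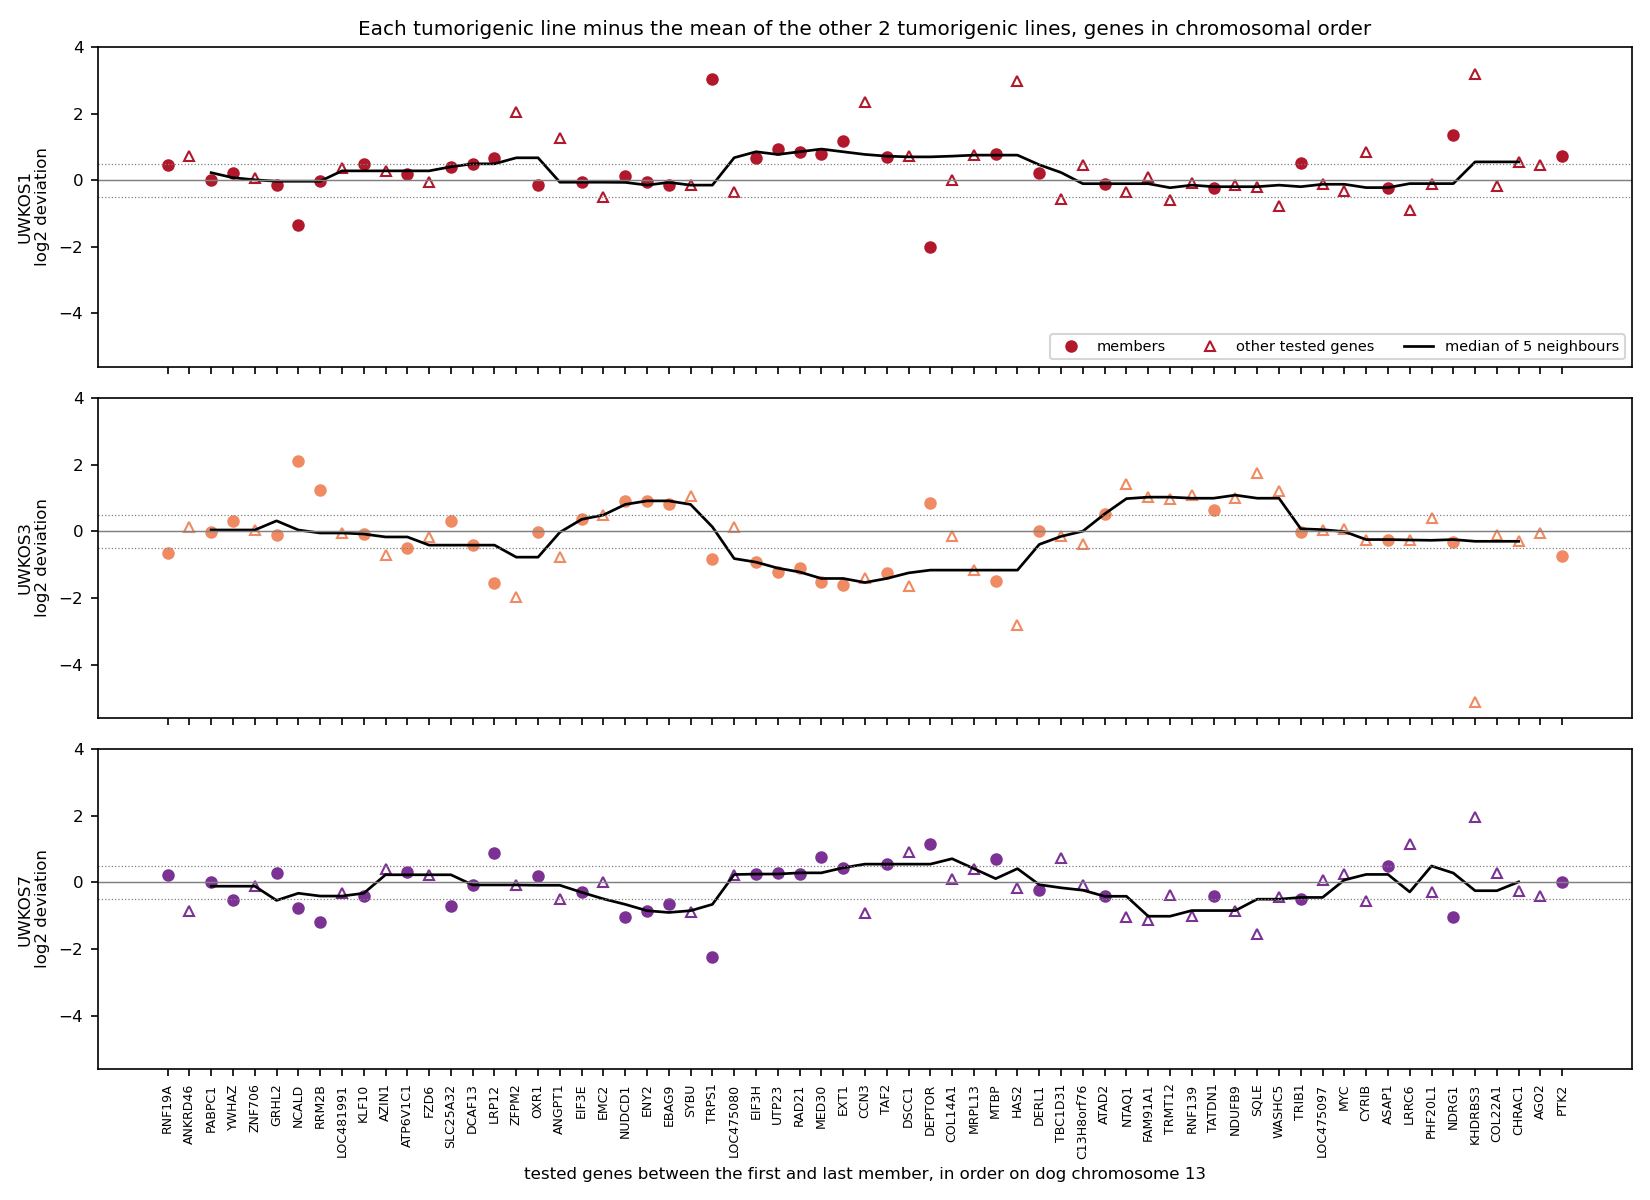
Each tumorigenic line's log2 value minus the mean of the other 2 tumorigenic lines, for the 65 tested genes between the first and last member in order on dog chromosome 13 (filled circles, members; open triangles, other genes), with the running median of 5 neighbours (black). UWKOS3 runs above 0 around ENY2, below it from EIF3H to HAS2 and above it again from NTAQ1 to WASHC5, and UWKOS1 and UWKOS7 mirror parts of this course.

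MYC, FZD6 and the other tested genes of the segment that are not on the list ranged more widely. MYC, the transcription factor at the centre of the segment's interest in cancer, had 10.80, 11.06 and 11.17 in the tumorigenic lines, against 10.03, 9.75 and 9.29 in the non-tumorigenic lines, and FZD6, a Wnt receptor, had 11.22, 11.14 and 11.41 in the tumorigenic lines, against 3.50, 3.80 and 3.13 in the non-tumorigenic lines. FZD6 was high in every tumorigenic line and at 3.80 or lower in every non-tumorigenic line, a gap that its measured neighbours ATP6V1C1 and SLC25A32 did not share in size. MYC was higher in each tumorigenic line, by 1.32 ± 0.23 on average, and nearly level among the 3. Both were known to differ when the list was drawn up, so no test is given. Of the other genes, CCN3, a matricellular protein, fell by 5.41 ± 1.04 (SE, n = 3 lines each, adjusted p = 0.0292, limma). It had 7.24, 4.74 and 5.07 in the tumorigenic lines, against 12.98, 9.34 and 10.96 in the non-tumorigenic lines. TRMT12, a tRNA-modifying enzyme, rose by 1.62 ± 0.35 (adjusted p = 0.0371, limma). Smaller rises that passed were those of C13H8orf76 (1.12 ± 0.23, adjusted p = 0.033, limma) and ZNF706 (0.73 ± 0.16, adjusted p = 0.0371, limma). Few of all tested genes passed without UWKOS6 or with the GAPDH covariate, as given below. KHDRBS3, an RNA-binding splicing regulator, had 10.26, 4.73 and 9.44 in the tumorigenic lines, against 11.34, 10.60 and 10.09 in the non-tumorigenic lines, so UWKOS3 alone was low. ANGPT1, the TIE2 ligand, was lower in all tumorigenic lines without passing the threshold (-1.28 ± 0.40, adjusted p = 0.0845, limma). SYBU (1.63 ± 0.59), DSCC1 (1.52 ± 0.60), ANKRD46 (1.45 ± 0.37) and NTAQ1 (1.37 ± 0.42) were higher on average and did not pass either. DSCC1, a replication clamp loader subunit, was 1.63 below the other tumorigenic lines in UWKOS3 and lies in its low block, while NTAQ1, a glutamine amidase, was 1.42 above them and lies in the high stretch that follows.

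Where a member had more than 1 probe set past the filter, the probe sets gave the group difference the same sign for 14 of 16 members, with ASAP1 and RNF19A as the exceptions. The size could differ: the differences spanned 0.34 to 1.61 for RAD21, 0.11 to 0.94 for YWHAZ and 0.09 to 0.54 for TAF2. Among 39 chromosomes, the median group difference of chromosome 13, 0.35 over 166 tested genes, came after those of chromosome 29 (0.45) and chromosome 31 (0.36), with chromosome 22 lowest at -0.23. The calls rested on UWKOS6 among others: 0 members passed in limma without UWKOS6 (unadjusted, 11 higher and 1 lower). With the log2 ratio between the GAPDH 3′ and 5′ probe sets as a covariate, 0 passed (unadjusted, 10 higher and 1 lower). Calls were lost among all genes as well. Of all 9145 tested genes, 5 were higher and 7 lower without UWKOS6, and 4 were higher and 6 lower with the covariate.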

How the data were processed

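Biotin-labelled cRNA from cultured cells of 6 canine osteosarcoma lines was hybridised to Affymetrix canine arrays, with 1 array for each line, per the labels' protocols. The submitters' processing notes name MAS5 alone, and its version is not given in the sources used here. The deposited values are on a log2 scale (1.97 to 14.83, with nearly equal column quantiles). How the authors summarised and normalized them is not settled here, and no pseudocount was added. Of 43035 probe sets, 111 were controls. Of the rest 29254 had 1 gene symbol in the platform annotation, 27680 of them updated through RefSeq (assembly UU_Cfam_GSD_1.0, used for names and gene order) and 1574 left as annotated.

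The brightest probe set stood for each gene. Genes with a mean at or above 6.07, the median of the non-control probe sets, were fitted with limma 3.58.1 (lmFit and eBayes, R 4.3.3, no covariate, Benjamini-Hochberg over 9145 genes, threshold 0.05). With 1 array per line, p-values measure the spread between lines, and the number of arrays limits precision. Replicate numbers follow accession order. Members, partner lists and markers were chosen with earlier results of these data known.

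All 6 values are given for 22 members: the 14 with the largest and the 3 with the smallest group difference, and those at least 1 log2 unit from the median of the other lines in any line. EIF3H, RAD21, RRM2B and FBXO32 have all 6 values beside their role partners, whether or not the rule took them. Also named are MYC, FZD6, up to 8 other segment genes by size of difference and up to 2 partners per list by smallest p. C13H8orf76 and ZNF706 were added because they passed in limma. The windows along the chromosome and the counts of partner lists under other settings were added after the data were seen. The fit and the window scan were tested on simulated data. Alternatives covered filters, normalization, centring, eBayes options, array weights, probe set choice, a GAPDH transcript-end covariate and leaving out lines. No promoter or protein sequence table was used. Figures were drawn with matplotlib 3.10.9.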

Additional observations from a re-analysis of the deposited data

How the results depend on the processing

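No paired analysis was possible because the replicate numbers follow accession order and pair no lines. With 7 members higher and 1 lower as reported, centring on the hybridization controls gave 11 and 0, the mean of probe sets 8 and 0, and the GAPDH covariate and the fit without both UWKOS6 and UWKOS8 gave 0 and 0 each (unadjusted in limma, 10 and 1 with the covariate, and 5 and 0 without both lines). The share of all tested genes called higher moved too: from 7.5% to 12.5% with hybridization-control centring, 8.94% with the mean of probe sets and 0.0437% with the covariate. The share called lower, 4.63%, went to 3.32%, 4.08% and 0.0656%. Leaving out 1 line at a time gave 0 to 6 members higher and 0 to 1 lower. Of all tested genes, 0.0547% to 9.0% were then higher and 0.0765% to 5.36% lower. The low end was reached without UWKOS6 (0 higher), followed by UWKOS8 (2), UWKOS1 (3) and UWKOS2 (3). No named gene changed direction while called under the settings run. Centring on the hybridization controls, which moved array medians to 5.95 to 6.23, also moved the member median of UWKOS3 to 0.55 and of UWKOS6 to -0.52; the other settings kept each line's median on its side of 0. Against the mean of all 6 lines, the medians of UWKOS3 and UWKOS7 were 0.08 and 0.25, against 0.27 and 0.47 as reported, and with the tested non-members added they were 0.36 and 0.26, in the opposite order. Without UWKOS6 and UWKOS8, the remaining non-tumorigenic line, UWKOS2, was taken to vary as much as the tumorigenic group.

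Of 112 tested partner genes 19 rose, 12 of them in the processome list, and 2 fell. The count of those that rose was 29 with hybridization-control centring, 0 with the GAPDH covariate and 0 without both lines (unadjusted in limma, 25 and 14), and 0 to 19 with 1 line left out, again 0 without UWKOS6 (unadjusted, 30). The count of those that fell was 1 with no filter, the upper-quartile filter, hybridization-control centring or the mean of probe sets, 0 with the covariate or without both lines (unadjusted, 2 and 1), and 0 to 1 with 1 line left out. For the 12 processome genes, the counts were 0 with the covariate and 0 without both lines (unadjusted, 14 and 7), and 0 to 9 with 1 line left out.

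The share of segment windows with UWKOS3 at least 0.5 below the other tumorigenic lines, 26.2%, moved by less than 1.5 times under all 8 settings. UWKOS3 above went to 10.2% without the filter, against 21.3%, and UWKOS1 above to 20.4%, against 31.1%. UWKOS7 above, 8.2%, was 4.76% with windows of 3, 4.08% without the filter, 2.5% with the upper-quartile filter and 1.64% with hybridization-control centring. UWKOS7 below, 21.3%, was 7.14% without the filter. Without the filter, probe sets near the floor of the array enter the windows.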

Other observations

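Outside the segment, on the part of chromosome 13 that carries PDGFRA, UWKOS3 again held the highest values over a run of neighbours. SCFD2 was at 8.43, 10.98 and 8.77 in the tumorigenic lines UWKOS1, UWKOS3 and UWKOS7, against 8.59, 8.83 and 8.66 in the non-tumorigenic lines UWKOS2, UWKOS6 and UWKOS8. FIP1L1, a polyadenylation factor, was at 10.33, 12.20 and 9.53 in the tumorigenic lines, against 8.89, 8.69 and 8.71 in the non-tumorigenic lines. The circadian gene CLOCK was at 7.51, 9.98 and 6.77 in the tumorigenic lines, against 6.60, 6.04 and 6.13 in the non-tumorigenic lines. UWKOS3 was 2.54 above the mean of the other tumorigenic lines for the receptor gene PDGFRA and 3.04 above for SRD5A3.

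The next tested genes after CLOCK showed the opposite. EXOC1, of the exocyst complex, was at 8.79, 6.98 and 8.30 in the tumorigenic lines, against 8.78, 8.62 and 8.58 in the non-tumorigenic lines. AASDH was 1.80 lower in UWKOS3 than the mean of the other tumorigenic lines. KDR, which lies between PDGFRA and SRD5A3, was 0.40 lower in UWKOS3 and did not follow its neighbours. These values were chosen after the data were seen and were not tested.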
